A study of Mus musculus with 4 samples.

Results

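The integrin subunits described here are 9 mouse genes: the beta chains Itgb1, Itgb5 and Itgb2 and the alpha chains Itga1, Itga5, Itga6, Itga7, Itgav and Itgam. Every probe set with 1 of these symbols in the platform annotation was taken, whatever its values. This gave 20 probe sets of 8 genes, out of 20380 probe sets and 12393 genes with a single symbol. No probe set carried the symbol Itga1 in the annotation used here, and Itga1 was not analysed here. A probe set counted as measured on an array at or above a floor of 64 intensity units, or 6 on the log2 scale. Of the 20 probe sets 12 were measured on at least 1 array, 5 of them on all 4 arrays and 7 on some. The 12 belong to Itgb1, Itgb5, Itga5, Itga6, Itga7 and Itgav. The other 8 lay below the floor on every array, and they include the single probe sets of Itgb2 and Itgam.

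Integrins are receptors of an alpha and a beta chain that span the cell membrane and tie the matrix, or a ligand on another cell, to the actin cytoskeleton. In heart muscle cells they sit at the costameres, beside the Z-discs, where they carry force between the sarcomeres and the matrix and signal through focal adhesion kinase and integrin-linked kinase. The beta1 chain pairs with many alpha chains, among them the collagen receptor chain alpha1, the fibronectin receptor chain alpha5 and the laminin receptor chains alpha6 and alpha7. The alphav chain pairs with beta1, beta5 and other beta chains and binds vitronectin and other ligands with an arginine-glycine-aspartate motif. The beta2 chain, with alphaM and other alpha chains, is an integrin of leukocytes.

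RNA of left ventricle or cardiac muscle was hybridised to 4 arrays, 1 for each group. The groups were IL-18 null mice with transaortic constriction (banded) for 1 week, in a pool of 6, and IL-18 null mice with a sham operation, for which 5 mice are labelled. The others were banded wild-type mice and sham-operated wild-type mice, and for these the labels name no strain, pool size or banding time; the series design speaks of 5 to 6 mice pooled for each group. C57BL/6 is named as the background of the IL-18 null strain for the banded pool only, and no age is named for any group. The series asks what the cytokine IL-18 does to gene expression in hypertrophy from pressure overload. Each array is a pool of mice and no group has a second array, so no difference between 2 arrays has an error or a p-value, and neighbouring levels in an order could not be told apart by a spread.

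Between 29.2% and 32.3% of probe sets reached the floor on each array, and 10 of 10 cardiomyocyte markers were at or above it on every array. Il18 had intensities between 7.4 and 9.1, below the floor on all arrays, so it did not check the genotype labels. Nppa, the natriuretic peptide gene used as a marker of ventricular load, had 13126 on IL-18 null banded against 2316 on IL-18 null sham, and 7217 on wild-type banded against 2722 on wild-type sham. In the controls of RNA integrity the wild-type arrays lay at opposite ends. The Gapdh control probe set in the middle of the transcript had 3885 on IL-18 null banded against 1619.6 on IL-18 null sham, and 17062.5 on wild-type banded against 83.6 on wild-type sham. Its 3′ minus middle value was 1.66 and 2.73 (log2) on IL-18 null banded and sham, and -0.16 and 4.61 on wild-type banded and sham. For the Actb control the same values were 4.56, 4.68, 2.01 and 4.88. Wild-type banded was thus the lowest for both controls, and wild-type sham was well above the IL-18 null arrays for Gapdh. The middle Actb probe set had 16.9 on wild-type sham, below the floor. The value of 4.88 there thus does not show likeness to the IL-18 null arrays. The 5′ Actb probe set had 342 and 275 on IL-18 null banded and sham, and 2041 and 8.9 on wild-type banded and sham. At the 3′ end both controls were also lowest on wild-type sham (2044.5 for Gapdh and 498.9 for Actb). These control values move with the wild-type banding comparison and with both comparisons between genotypes, and their part in the results below was not tested. The levels come from whole tissue, in which fewer cells of a type and less RNA per cell cannot be told apart.

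**Figure D1:**
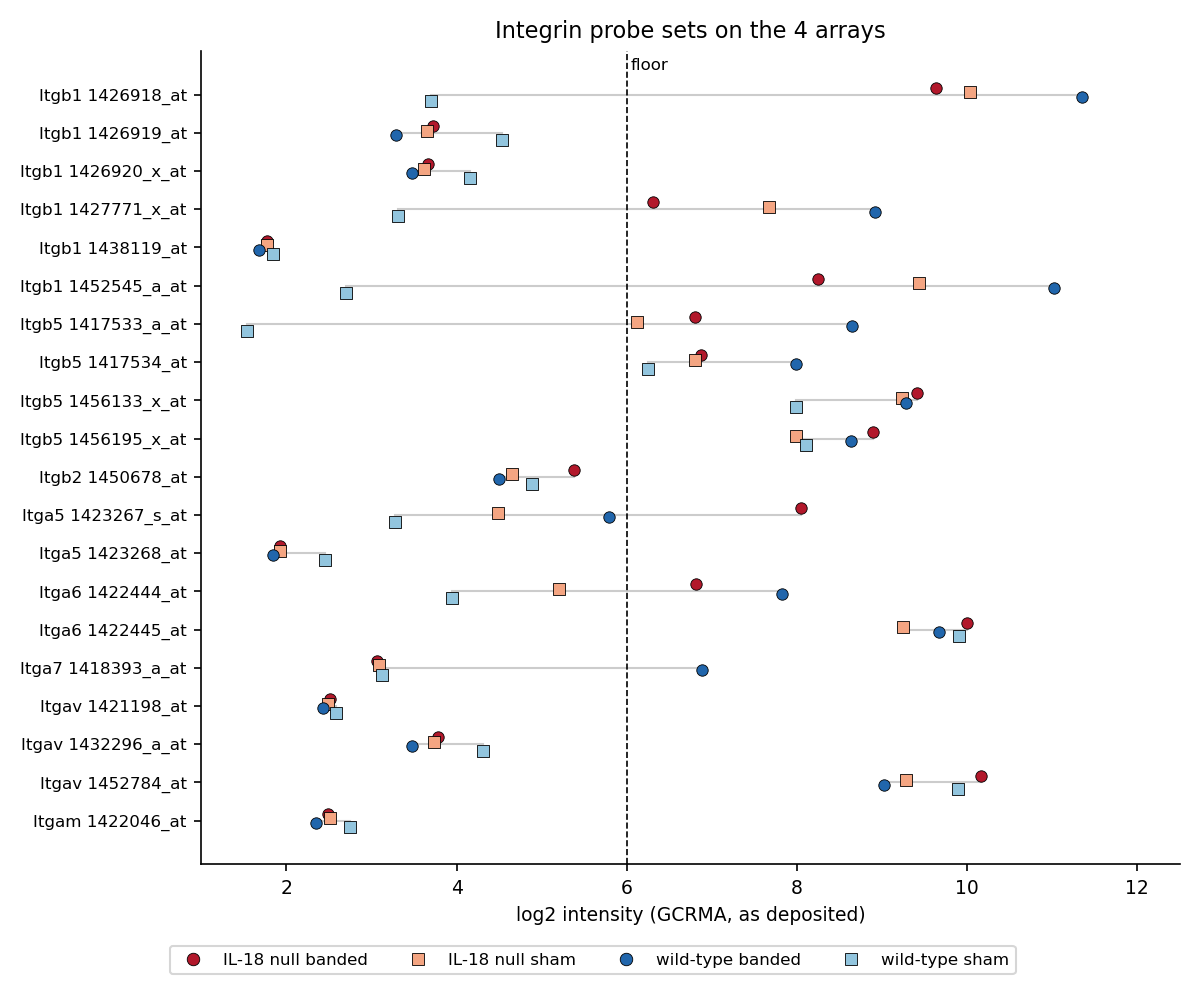
Log2 intensity (x axis) of each of the 20 integrin probe sets (rows) on the 4 arrays, with 1 point per array and the floor of log2 6 as a dashed line. Levels may be compared along a row, not between rows. Itgb1 probe sets 1426918_at, 1427771_x_at and 1452545_a_at, Itgb5 1417533_a_at and Itga6 1422444_at lie lowest on wild-type sham and highest on wild-type banded, while Itga5 1423267_s_at and Itgav 1452784_at lie highest on IL-18 null banded.

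At 2-fold or more, the integrin probe sets went both ways with banding in IL-18 null and 1 way in wild type. In both genotypes most differences lay above 0. Below 0 were only the Itgb1 probe sets in IL-18 null, and only Itgav and Itga6 1422445_at in wild type. Between the IL-18 null arrays, 1 of the 11 probe sets measured on either array was at least 2-fold higher in banded (Itga5) and 2 were at least 2-fold lower (both Itgb1), where 6.64% of all 6743 measured probe sets were higher and 4.20% lower. Between the wild-type arrays 7 of 11 were higher in banded by 2-fold or more and 0 lower, where 24.9% of 7200 were higher and 11.5% lower. The 7 were 3 of Itgb1, 3 of Itgb5 and 1 of Itga6. After quantile normalization, which moved the median of all measured probe sets from -0.02 to -0.34 in this comparison, the split was 6 higher and 1 lower, with Itgb5 1456133_x_at no longer past 2-fold (0.91) and Itgav as the lower one (-1.14). The median difference of the 11 was 0.69 in IL-18 null, against 0.06 over all measured probe sets, and 1.74 in wild type, against -0.02. Probe sets that passed the floor on 1 array only had to differ, and Itgb1 and Itgb5 make up 7 of the 12, so the counts and medians describe these probe sets and are not evidence about integrins in general. With 1 probe set per gene, 1 of 5 was past 2-fold higher and 0 lower between the IL-18 null arrays, where 6.98% of 4827 genes were higher and 2.53% lower. In wild type 2 of 5 were higher and 0 lower, where 21.7% of 5040 genes were higher and 12.8% lower.

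Between genotypes, all 3 measured Itgb1 probe sets were lower in IL-18 null on the banded arrays and higher in IL-18 null on the sham arrays. The banded comparison does not use wild-type sham, but it uses wild-type banded, which had the lowest 3′ minus middle value of both RNA controls. These values were -0.16 for Gapdh and 2.01 for Actb, against 1.66 and 4.56 on IL-18 null banded. Their part in the banded comparison was not tested. In this comparison 2 of 12 probe sets, of Itga5 and Itgav, exceeded wild type by 2-fold or more in IL-18 null, and 6 were lower by as much. The background was 5.11% higher and 10.9% lower among 7039 probe sets. The 6 lower ones were 3 of Itgb1, 2 of Itgb5 and 1 of Itga6. The split was 1 higher and 7 lower after cyclic loess. It was 2 higher and 5 lower after quantile normalization or centring on the median, and 2 and 4 with a floor of log2 7. With 1 probe set per gene it was 2 higher and 1 lower of 6, where 5.70% of 4947 genes were higher and 7.74% lower, and the median difference was 0.22 against -0.95 over the 12. On the sham arrays 4 of 9 exceeded wild type by 2-fold or more in IL-18 null and 0 were lower by as much, where the background was 18.4% higher and 6.02% lower among 6797. These were 3 of Itgb1 and 1 of Itgb5. Wild-type banding and the sham comparison share the wild-type sham array.

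**Figure D2:**
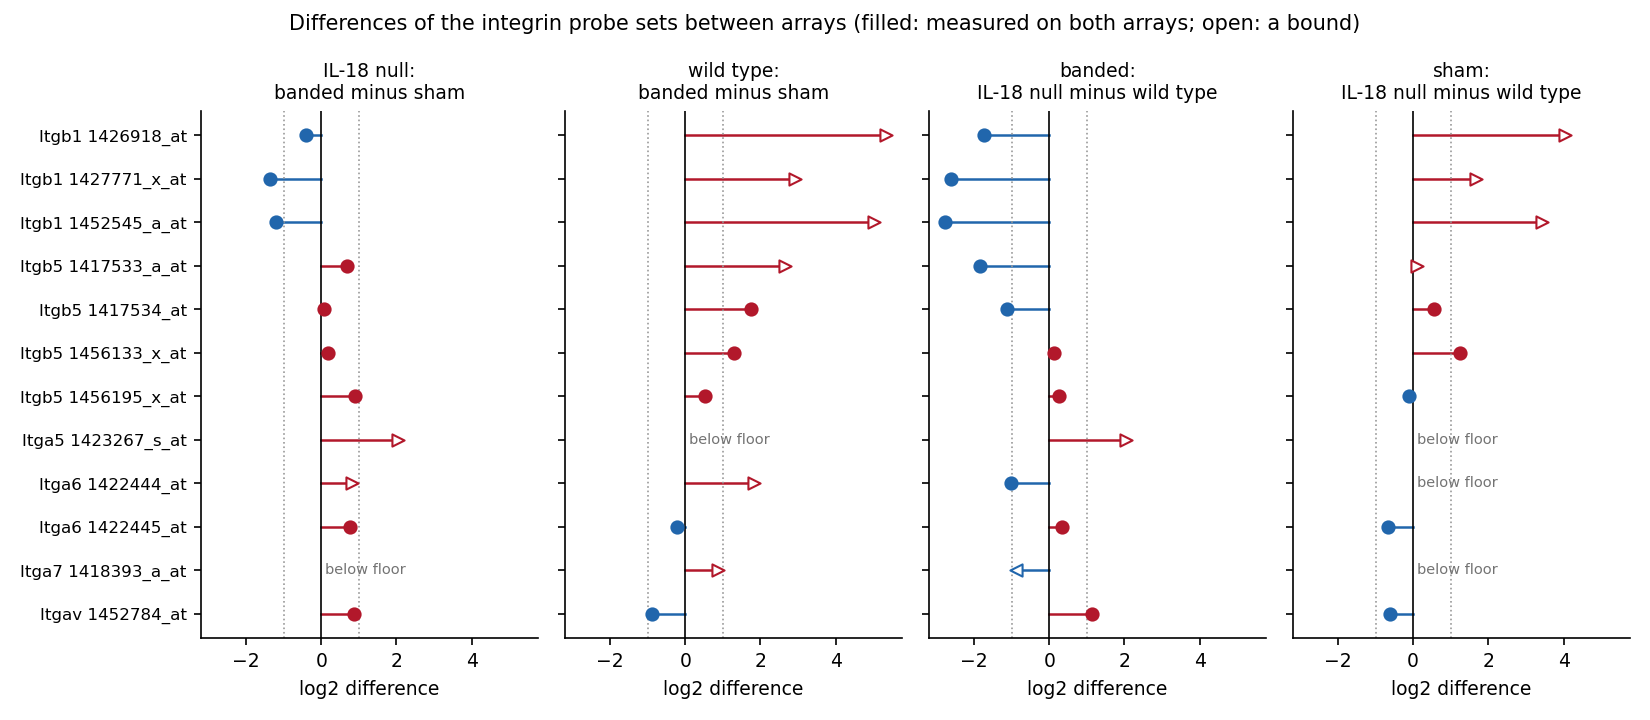
Log2 difference (x axis) of the 12 integrin probe sets measured on at least 1 array, in 4 comparisons: banded minus sham in IL-18 null and in wild type, and IL-18 null minus wild type on the banded and on the sham arrays. Filled points were measured on both arrays, open triangles are bounds with 1 array below the floor, and dotted lines mark 2-fold. The 3 Itgb1 probe sets are below 0 in IL-18 null banding (-0.40 to -1.36) and above 0 in wild-type banding (at least 2.92 to at least 5.35).

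Promoter windows are shown for Itgb1, Itga5 and Itgav, whose patterns over the arrays differed. Each holds the 250 bases before the annotated gene start in RefSeq on build GRCm38.p6, 5′ to 3′ on the gene's own strand, which lies upstream of the first exon. Itgb1 is at chr8:128685404-128685653 on the plus strand, Itga5 at chr15:103366792-103367041 on the minus strand and Itgav at chr2:83724147-83724396 on the plus strand. RefSeq windows were found for 6 of the 9 genes. Capitals mark matches, on either strand, to any of 6 motifs.
Itgb1: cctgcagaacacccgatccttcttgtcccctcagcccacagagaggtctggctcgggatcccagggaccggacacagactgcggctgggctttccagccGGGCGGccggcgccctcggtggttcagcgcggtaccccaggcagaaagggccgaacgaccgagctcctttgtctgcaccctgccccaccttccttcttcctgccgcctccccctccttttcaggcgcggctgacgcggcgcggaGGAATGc
Itga5: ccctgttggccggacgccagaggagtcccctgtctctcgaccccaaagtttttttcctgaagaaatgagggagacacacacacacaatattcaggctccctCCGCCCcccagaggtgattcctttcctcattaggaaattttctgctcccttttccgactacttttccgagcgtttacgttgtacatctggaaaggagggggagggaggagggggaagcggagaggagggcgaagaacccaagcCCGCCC
Itgav: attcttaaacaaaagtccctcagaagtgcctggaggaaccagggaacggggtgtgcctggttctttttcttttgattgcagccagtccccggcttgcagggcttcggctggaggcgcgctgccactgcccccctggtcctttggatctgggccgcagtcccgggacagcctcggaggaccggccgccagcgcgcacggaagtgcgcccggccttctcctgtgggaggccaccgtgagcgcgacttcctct

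The motifs were the GC box GGGCGG, bound by Sp1 and its relatives, the TEAD motif GGAATG, the AP-1 motif TGANTCA, the GAS motif TTCNNNGAA of STAT factors, the CArG box of serum response factor and the NF-kappa-B motif. The Itgb1 window held 1 GC box, starting at -151 from the gene start, and 1 TEAD motif, starting at -7. The Itga5 window held 2 GC boxes, at -149 and -6, and the Itgav window held no match to any of the 6. Of 32851 windows of the same length 32.7% held a GC box, 12.6% a TEAD motif, 6.75% an AP-1 motif, 7.02% a GAS motif, 1.47% a CArG box and 7.25% an NF-kappa-B motif. No matches overlapped in these windows. The matches are letters in a window, and nothing about binding was measured. GC content was 68.0% for Itgb1, 55.6% for Itga5 and 64.4% for Itgav.

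Itgb1 encodes the beta1 chain, the main beta chain of heart muscle cells. Its probe set 1426918_at had 792 on IL-18 null banded against 1048 on IL-18 null sham, and 2609.5 on wild-type banded against 13.0 on wild-type sham. Probe set 1452545_a_at had 303 on IL-18 null banded against 690.1 on IL-18 null sham, and 2078 on wild-type banded against 6.5 on wild-type sham. Probe set 1427771_x_at, annotated to the same sequence record as 1452545_a_at, had 79.4 on IL-18 null banded against 204 on IL-18 null sham, and 485 on wild-type banded against 9.9 on wild-type sham. All 3 thus gave the same order, wild-type banded above IL-18 null sham, above IL-18 null banded, above wild-type sham, and on wild-type sham all 3 lay below the floor.

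In IL-18 null the log2 differences of Itgb1 between banded and sham were -0.40, -1.19 and -1.36 for 1426918_at, 1452545_a_at and 1427771_x_at. The last was the 103rd lowest of 6120 probe sets measured on both IL-18 null arrays. Its suffix marks possible cross-hybridisation. Its value on IL-18 null banded, 79.4, was near the floor, and with a floor of log2 7 the difference was -0.67. Of the 6120, 2.4% lay at or below 1452545_a_at and 14.8% at or below 1426918_at. In wild type the differences of these probe sets were bounds, of at least 5.35, at least 5.02 and at least 2.92. On the banded arrays IL-18 null was lower than wild type by differences of -1.72, -2.78 and -2.61. Of 6110 probe sets measured on both banded arrays, 0.458% lay at or below 1452545_a_at and 2.95% at or below 1426918_at. On the sham arrays the differences were at least 4.03, at least 3.43 and at least 1.67, higher in IL-18 null. The other 3 Itgb1 probe sets, 1426919_at, 1426920_x_at and 1438119_at, lay between 3.2 and 23.1 on every array, below the floor, and 1426919_at and 1426920_x_at are annotated to the same sequence record as 1426918_at.

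Itgb5 encodes the beta5 chain, a partner of alphav in binding vitronectin. Its 4 probe sets were all measured, and they did not give 1 pattern. Probe set 1417533_a_at had 112 on IL-18 null banded against 69.3 on IL-18 null sham, and 401 on wild-type banded against 2.9 on wild-type sham. Probe set 1417534_at, from the same sequence record, had 117.5 on IL-18 null banded against 111.5 on IL-18 null sham, and 253 on wild-type banded against 75.9 on wild-type sham. The remaining probe sets varied less. Probe set 1456133_x_at had 681 on IL-18 null banded against 602 on IL-18 null sham, and 625 on wild-type banded against 254 on wild-type sham. Probe set 1456195_x_at had 474 on IL-18 null banded against 253 on IL-18 null sham, and 397 on wild-type banded against 276 on wild-type sham.

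All 4 Itgb5 probe sets were higher on the banded array of either genotype, by 0.08 to 0.90 in IL-18 null. In wild type the differences were at least 2.65 for 1417533_a_at, 1.74 for 1417534_at, 1.30 for 1456133_x_at and 0.52 for 1456195_x_at. Between genotypes the probe sets disagreed on the banded arrays: 1417533_a_at and 1417534_at were lower in IL-18 null (-1.84 and -1.11), and 1456133_x_at and 1456195_x_at differed by 0.12 and 0.26. The suffix of both 1456133_x_at and 1456195_x_at marks possible cross-hybridisation, and neither has a sequence record in the annotation used here. Where 1 probe set per gene was used, 1456133_x_at stood for Itgb5. Probe sets 1417533_a_at and 1417534_at gave the arrays the same order as the middle Gapdh control, as did Itga6 1422444_at. These 3 were 25.0% of the 12 integrin probe sets, where 10.4% of all 7366 measured probe sets had that order.

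**Figure D3:**
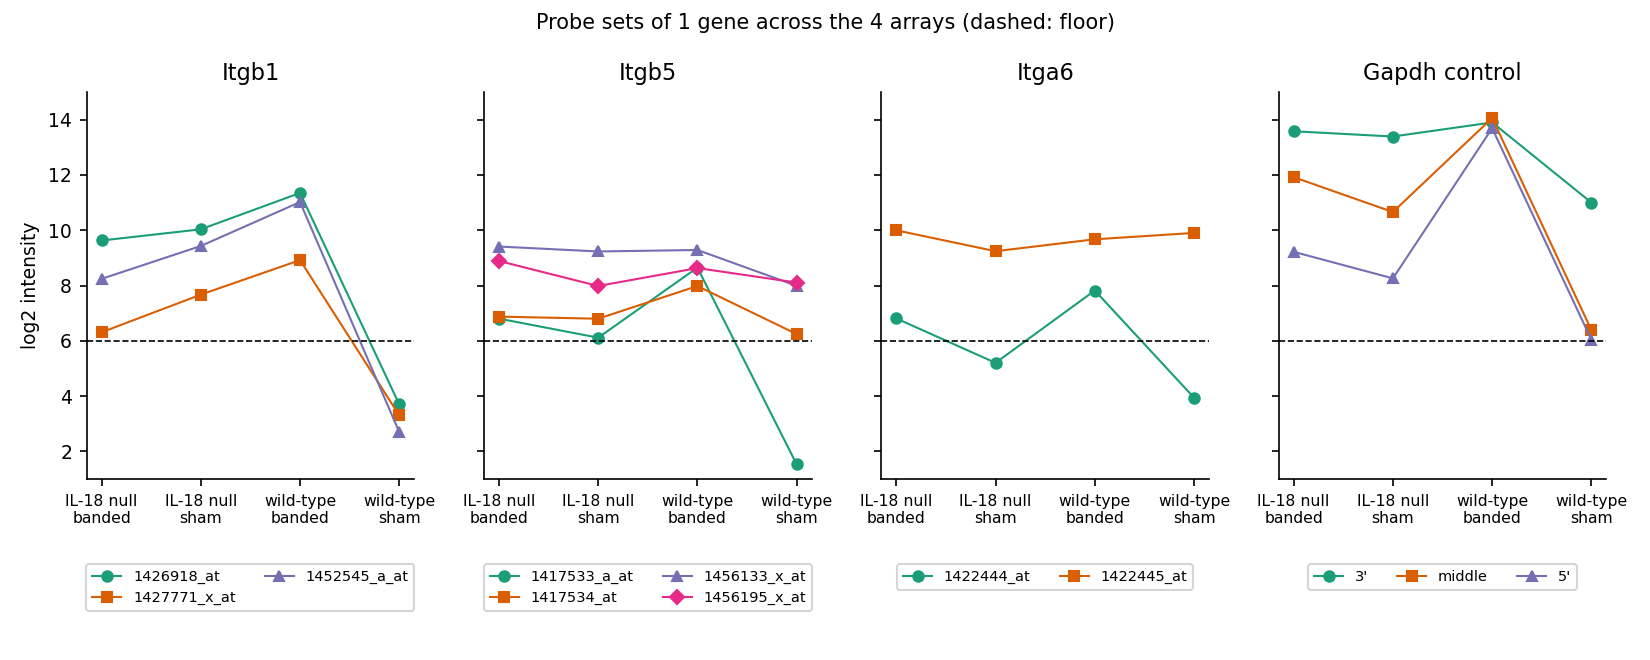
Log2 intensity (y axis) on the 4 arrays (x axis) of the measured probe sets of Itgb1, Itgb5 and Itga6, with the Gapdh control at its 3′ end, middle and 5′ end in the last panel, and the floor of log2 6 as a dashed line. Lines join the values of 1 probe set. The middle Gapdh probe set has log2 14.06 on wild-type banded against 6.39 on wild-type sham, Itga6 1422444_at 7.82 against 3.94 and Itga6 1422445_at 9.67 against 9.90.

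Itga5 encodes the alpha5 chain, which with beta1 forms the main fibronectin receptor. Its probe set 1423267_s_at had 266 on IL-18 null banded against 22.4 on IL-18 null sham, and 55.2 on wild-type banded against 9.7 on wild-type sham. IL-18 null banded was the only array at or above the floor. The difference with banding was at least 2.05 in IL-18 null, a fold of at least 4.15, and that against wild-type banded was also at least 2.05. The banding difference in wild type lay between values below the floor on both arrays and gave no measured fold. The other probe set, 1423268_at, had between 3.6 and 5.5 on every array. The suffix of 1423267_s_at marks probes that can match more than 1 transcript, and without probe sets so marked 0 integrin probe sets were past 2-fold higher between the IL-18 null arrays.

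Itgav encodes the alphav chain, which is found on fibroblasts, vascular cells and muscle and takes part in the release of active TGF-beta. Its measured probe set 1452784_at had 1147 on IL-18 null banded against 624 on IL-18 null sham, and 520.3 on wild-type banded against 951.5 on wild-type sham. The banded array was the higher of the pair in IL-18 null (0.88) and the lower in wild type (-0.87), both short of 2-fold. The difference of these banding responses was 1.75, which ranked 304th from the highest of 5378 probe sets measured on all 4 arrays. On the banded arrays Itgav was higher in IL-18 null by 1.14, above 96.9% of probe sets measured on both or level with them, and on the sham arrays it was lower by a difference of -0.61. Probe sets 1421198_at and 1432296_a_at lay between 5.4 and 19.8.

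Fibroblast markers had 6 of 9 measured genes past 2-fold higher with banding in each genotype and 0 lower, where 6.98% of all genes were higher in IL-18 null and 21.7% in wild type. Pdgfra was below its sham value in both (-0.84 in IL-18 null and -0.61 in wild type), and Dpt differed by 0.43 in IL-18 null and -0.35 in wild type. The summed intensity over 11 fibroblast markers, in which Col3a1, Postn and Vim weigh most on IL-18 null banded, was 46235 on IL-18 null banded against 17582 on IL-18 null sham, and 30568 on wild-type banded against 12649.7 on wild-type sham. On every array 9 of 11 were at or above the floor, and Tcf21 and Ddr2 were below it. Fn1, which encodes fibronectin, had 1193.5 on IL-18 null banded against 87.1 on IL-18 null sham, and 142 on wild-type banded against 48.7 on wild-type sham. Fn1 was thus highest on the same array as Itga5. The part of the marker levels in the Itga5 and Itgav values was not tested.

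Itga6 encodes the alpha6 chain, a laminin receptor chain of endothelial, epithelial and other cells. Its probe set 1422445_at had 1023 on IL-18 null banded against 606 on IL-18 null sham, and 816 on wild-type banded against 958 on wild-type sham. Probe set 1422444_at, from the same sequence record, had 112 on IL-18 null banded against 36.9 on IL-18 null sham, and 226 on wild-type banded against 15.4 on wild-type sham. Thus 1422445_at stayed within 2-fold in all 4 comparisons, with banding differences of 0.76 in IL-18 null and -0.23 in wild type. By contrast 1422444_at gave at least 0.81 in IL-18 null and at least 1.82 in wild type, and -1.01 between IL-18 null and wild type on the banded arrays. Endothelial markers, summed over 10 genes, had 3175 on IL-18 null banded against 3989 on IL-18 null sham, and 4926 on wild-type banded against 2867 on wild-type sham, with 8, 8, 10 and 7 genes at or above the floor. The part of these levels in the Itga6 values was not tested.

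Itga7 encodes the alpha7 chain, the laminin receptor chain characteristic of skeletal and heart muscle. Its 1 probe set, 1418393_a_at, had 8.4 on IL-18 null banded and 8.5 on IL-18 null sham, and 118 on wild-type banded against 8.7 on wild-type sham. Only wild-type banded was at or above the floor, so the wild-type banding difference was at least 0.88, and on the banded arrays IL-18 null was lower than wild type by at least 0.88 (-0.88 with the value below the floor set to it). The cardiomyocyte markers, summed over 10 genes, had 210313 on IL-18 null banded against 213062 on IL-18 null sham, and 231717 on wild-type banded against 176254 on wild-type sham. They were not uniform between the wild-type arrays. Mybpc3 differed by 4.13 and Ttn by 1.05 with banding there, and the others lay between -0.33 (Pln) and 0.73 (Tnnt2). The middle Gapdh control was also highest on wild-type banded. Their part in the Itga7 value was not tested.

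Laminin chains, the ligands of alpha6 and alpha7, were grouped after their values were seen. Of 6 chains 2 were past 2-fold higher and 0 lower with banding in IL-18 null, Lama2 (1.44) and Lamb1 (1.42), with a range from -0.27 to 1.44 over the 6, where 6.98% of all genes were higher. In wild type 3 of 6 were past 2-fold higher and 0 lower, Lama4 (at least 3.14), Lamb2 (at least 3.70) and Lamc1 (2.16), where 21.7% of all genes were higher. Lama2 and Lamb1 differed by -0.11 and -0.59 there.

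Itgb2 and Itgam encode the beta2 and alphaM chains, which together form the complement receptor of macrophages and neutrophils. Itgb2 had 41.6 on IL-18 null banded against 25.2 on IL-18 null sham, and 22.6 on wild-type banded against 29.7 on wild-type sham. Itgam had 5.6 on IL-18 null banded and 5.7 on IL-18 null sham, and 5.1 on wild-type banded and 6.7 on wild-type sham. Neither reached the floor on any array, so no fold is given. Macrophage markers were detected: summed over 13 genes they had 10250.1 on IL-18 null banded against 4566 on IL-18 null sham, and 7037 on wild-type banded against 4969 on wild-type sham. On the same arrays 11, 10, 10 and 9 of the 13 were at or above the floor, and Cd163 was below it on all. Lyz2 weighs most in the sum on wild-type banded. It had 3051 on IL-18 null banded against 1607 on IL-18 null sham, and 2727 on wild-type banded against 887 on wild-type sham. Adgre1, Csf1r, Mrc1, Mpeg1, Laptm5, Tyrobp and Ptprc were lower on wild-type banded than on wild-type sham.

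With banding 7 of 11 measured macrophage markers were past 2-fold higher and 0 lower between the IL-18 null arrays, and 4 of 11 were higher and 1 lower between the wild-type arrays. Over all genes 6.98% were higher and 2.53% lower in IL-18 null, and 21.7% higher and 12.8% lower in wild type. The median macrophage marker differed by 1.21 in IL-18 null and by -0.34 in wild type. Mpeg1, which encodes the macrophage pore protein perforin-2, had 544 on IL-18 null banded against 145 on IL-18 null sham, and 94.0 on wild-type banded against 134 on wild-type sham. C1qb, a chain of complement C1q, had 1902 on IL-18 null banded against 455 on IL-18 null sham, and 900.4 on wild-type banded against 421.5 on wild-type sham. The other C1q chains were highest on wild-type banded. C1qc had 558 on IL-18 null banded against 203.5 on IL-18 null sham, and 675 on wild-type banded against 36.6 on wild-type sham. C1qa, chosen after its values were seen, had 6.3 on both IL-18 null arrays, and 366.9 on wild-type banded against 6.6 on wild-type sham. Neutrophil markers, summed over 9 genes, had 1246 on IL-18 null banded against 808 on IL-18 null sham, and 315 on wild-type banded against 1315 on wild-type sham. Of 9 neutrophil markers Csf3r, Ngp, Camp, Ltf, Mmp8 and Mmp9 were below the floor on all arrays.

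**Figure D4:**
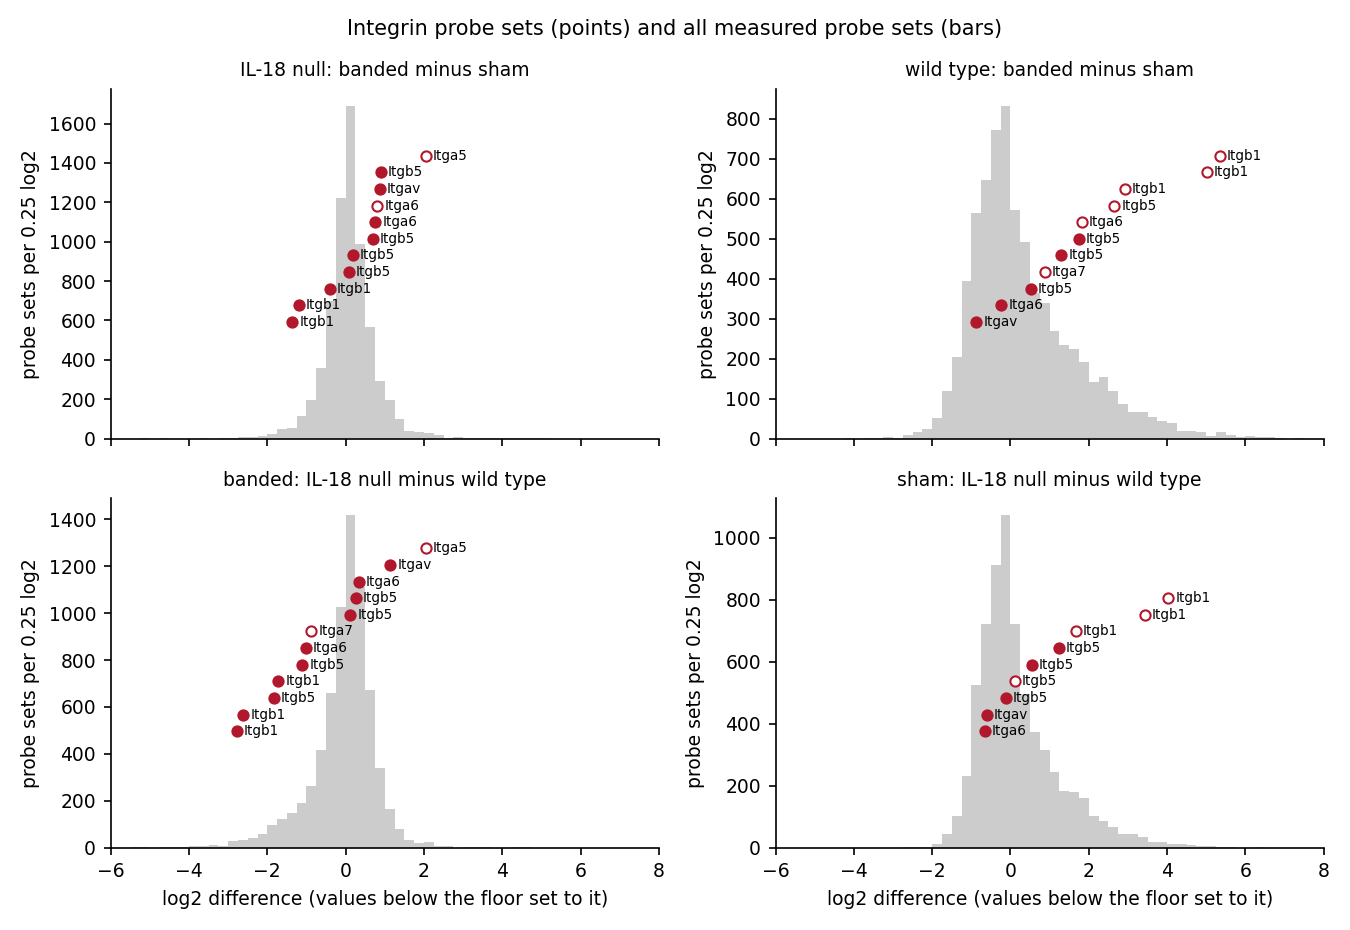
Number of measured probe sets (y axis, bars) by log2 difference (x axis, bins of 0.25, values below the floor set to it) in the 4 comparisons, with the integrin probe sets as points placed at their own difference. Point height has no meaning, and open points are bounds. The wild-type banding and sham genotype distributions have long right tails, in which the Itgb1 probe sets lie, and on the banded arrays 2 of the Itgb1 probe sets lie below -2.

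The difference of the banding responses, IL-18 null minus wild type, was measured or bounded for 9 of the probe sets. It was at most -5.75, -6.21 and -4.28 for Itgb1 1426918_at, 1452545_a_at and 1427771_x_at and at most -1.96 for Itgb5 1417533_a_at. For the 5 probe sets measured on all 4 arrays it was -1.66 (Itgb5 1417534_at), -1.12 (Itgb5 1456133_x_at), 0.38 (Itgb5 1456195_x_at), 0.99 (Itga6 1422445_at) and 1.75 (Itgav). With values set to the floor, 2 of 12 were at least 2-fold above 0 and 7 below, where 18.8% of 7366 were above and 24.9% below; the split was 3 and 5 after quantile normalization.

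An additive model across all 7366 measured probe sets, with surgery and genotype as terms and 1 residual degree of freedom, gave the only test that the design allows. With limma's moderated test, 0 of 7366 probe sets had a Benjamini-Hochberg adjusted p under 0.05 for banding and 0 for genotype (0% called). At an unadjusted p under 0.05 limma called 1.44% of all probe sets for banding and 0.19% for genotype, and 1 and 0 of the 12 integrin probe sets. The 1 was Itga6 1422444_at, with a banding difference of 2.74 ± 1.04 (SE; limma unadjusted p = 0.0482, adjusted p = 1). Larger banding estimates with larger errors were 3.90 ± 1.76 for Itgb5 1417533_a_at, 3.62 ± 1.93 for Itgb1 1426918_at, 3.57 ± 2.24 for Itgb1 1452545_a_at and 3.04 ± 1.21 for Itga5 1423267_s_at (SE, limma, adjusted p = 1 for each). Their errors hold the unequal banding differences of the genotypes only in part, because the moderated test draws each error toward those of other probe sets. The fit used values that were not set to the floor. These estimates and that of Itga6 1422444_at thus rest in part on intensities counted as not measured. For example, Itgb5 1417533_a_at had 2.9 on wild-type sham, and Itga5 1423267_s_at reached the floor on IL-18 null banded only. For Itgav the estimate was 0.00 ± 0.72.

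No other integrin subunit of a list of 17 was measured. Of these 13 had probe sets, 20 in all, among them Itga3, Itga4, Itga9, Itgal and Itgb3, and the highest of their intensities was 36.6, for Itga9 on wild-type sham. Pairings of the measured chains with these subunits therefore have no values here.

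Of 18 measured matrix ligands of integrins 11 were past 2-fold higher with banding in IL-18 null and 1 lower (median 1.22, against 0.08 over all genes), and 11 of 18 were higher in wild type and 0 lower (median 1.11, against -0.08). The background was 6.98% of genes higher and 2.53% lower in IL-18 null, and 21.7% higher and 12.8% lower in wild type. Ccn1 was below its sham value in both genotypes, Lamb2 in IL-18 null alone (-0.27), and Lamb1, Nid1 (-0.15), Lama2 and Ltbp1 (a bound of -0.23) in wild type; these, like Pdgfra and Dpt, were chosen after their values were seen. Postn, which encodes periostin, a ligand of alphav integrins, had 8791 on IL-18 null banded against 852 on IL-18 null sham, and 2188 on wild-type banded against 932 on wild-type sham. Ccn2, a matricellular ligand, had 2581 on IL-18 null banded against 319 on IL-18 null sham, and 1026 on wild-type banded against 599 on wild-type sham. Col1a1, which encodes a collagen chain, had 1633 on IL-18 null banded against 226 on IL-18 null sham, and 591 on wild-type banded against 109.7 on wild-type sham. The lower member in IL-18 null was Ccn1 (-1.27), which was chosen after its values were seen.

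Ligands and partners of leukocyte integrins had 4 of 6 measured members past 2-fold higher with banding in IL-18 null and 0 lower, and 3 of 6 higher in wild type and 0 lower, beside 6.98% and 21.7% of all genes higher. Icam1, the endothelial ligand of beta2 integrins, had 1088 on IL-18 null banded against 74.2 on IL-18 null sham, and 271 on wild-type banded against 83.3 on wild-type sham. Vcam1, a ligand of alpha4beta1, had 1014 on IL-18 null banded against 241 on IL-18 null sham, and 383 on wild-type banded against 366 on wild-type sham. Cd14, the lipopolysaccharide co-receptor of macrophages, had 1886 on IL-18 null banded against 72.0 on IL-18 null sham, and 71.9 on wild-type banded against 73.3 on wild-type sham. The ligands Icam1 and Vcam1 were thus measured while Itgb2 and Itga4 were not.

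Among integrin-linked adaptors and kinases, 2 of 18 measured were past 2-fold higher with banding in IL-18 null and 1 lower, and 8 of 19 were higher in wild type and 1 lower. As shares these are 11.1% higher in IL-18 null, near the 6.98% of all genes, and 42.1% higher in wild type, beside 21.7%. The lower shares are 5.56% in IL-18 null, beside 2.53% of all genes, and 5.26% in wild type, beside 12.8%. The lower one in IL-18 null was Tns1, which encodes tensin 1, a link between beta tails and actin. Tns1 had 74.4 on IL-18 null banded against 661 on IL-18 null sham, and 2719.6 on wild-type banded against 182 on wild-type sham, the same order of arrays as Itgb1 except that its lowest array was IL-18 null banded. Itgb1bp2, which encodes melusin, a muscle protein that binds the beta1 tail, had 2755 on IL-18 null banded against 2426 on IL-18 null sham, and 2758 on wild-type banded against 501 on wild-type sham. Lims2, which encodes PINCH2 of the integrin-linked kinase complex, had 118 on IL-18 null banded against 135 on IL-18 null sham, and 469 on wild-type banded against 119.7 on wild-type sham. Crk, an adaptor downstream of focal adhesion kinase, had 2299 on IL-18 null banded against 953 on IL-18 null sham, and 1556 on wild-type banded against 2409.8 on wild-type sham.

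Membrane proteins that associate with integrins had 0 of 11 measured members past 2-fold with banding in IL-18 null, and 6 of 11 higher and 0 lower in wild type. With 6.98% of all genes higher in IL-18 null and 21.7% in wild type, a count of 0 of 11 in IL-18 null is near the background. Dag1, which encodes dystroglycan, the other laminin receptor of muscle, had 1927 on IL-18 null banded against 2518 on IL-18 null sham, and 3130.3 on wild-type banded against 692 on wild-type sham. Its order of arrays was that of Itgb1. Bsg, which encodes basigin, had 5443 on IL-18 null banded against 8478 on IL-18 null sham, and 14590.0 on wild-type banded against 95.4 on wild-type sham, in that order too. Cd9, a tetraspanin that binds integrins, had 1021 on IL-18 null banded against 968 on IL-18 null sham, and 1209 on wild-type banded against 463 on wild-type sham.

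**Figure D5:**
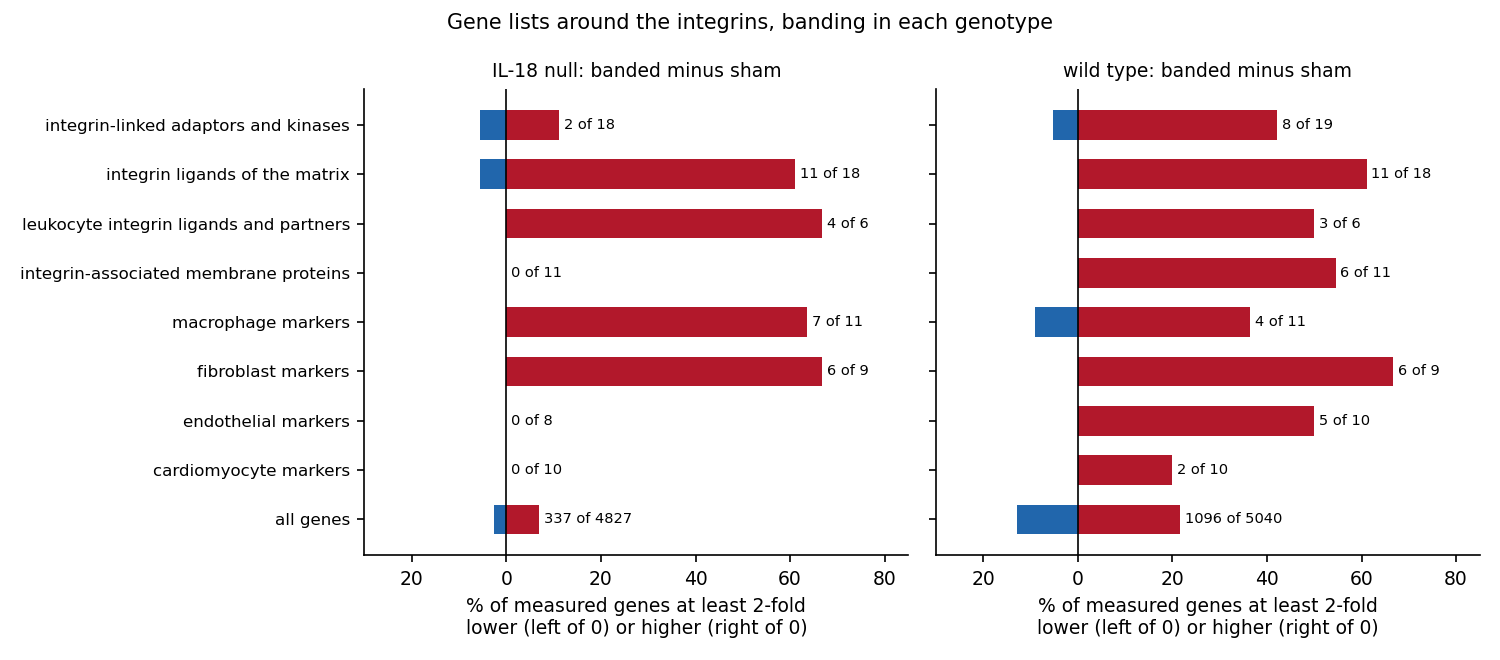
Percent of the measured genes of each list (1 probe set per gene) past 2-fold higher (right of 0) or lower (left of 0) in banded than in sham, in IL-18 null (left panel) and wild type (right panel), with the number higher of the number measured beside each bar. Matrix ligands were 11 of 18 in both panels, and integrin-associated membrane proteins 0 of 11 in IL-18 null and 6 of 11 in wild type, beside 337 of 4827 and 1096 of 5040 over all genes.

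Genes with the most similar pattern were sought for the members measured on all 4 arrays, by the root mean square difference of log2 values centred on their mean, over 4 arrays and 3991 genes. Itgb5 (1456133_x_at, marked as able to cross-hybridise) was nearest to Casq2, Dynlrb1 and Ssu72, at 0.013 to 0.017. Itga6 (1422445_at) was nearest to Pkp4, Rusc1 and Mllt10, at 0.050 to 0.055. Itgav was nearest to Rnf115 (0.027), Arf6 (0.044) and H2-Aa (0.046). With 4 values per gene such likeness is a description of these arrays. Itgb1, Itga5 and Itga7 were below the floor on at least 1 array and were not searched.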

How the data were processed

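Total RNA of mouse left ventricle or cardiac muscle was measured on 4 biotin-labelled arrays. The authors deposited a linear intensity for each probe set, computed with GCRMA per the submitters' processing notes, which name no version or settings. The linear scale was read from the range, 1.5 to 43811.1. Scanner files were not used here. Precision is limited by the number of arrays. Of 22690 probe sets 64 were controls, 691 had several genes and 1555 none, and these stayed out. Symbols matched RefSeq (GRCm38.p6) for 20351 of 20380. Values were turned to log2 and set to a floor of 6 before differences were taken; a gene's own probe set was that of highest mean. Groups came from the sample titles. Calls were log2 differences of at least 1, with no test. The additive fit used limma 3.58.1 in R 4.3.3 (lmFit, eBayes with intensity trend) on unfloored values, and was checked on simulated data. Named genes were all members, up to 4 per list by the largest banding difference measured on both arrays, the macrophage list with Itgb2 and Itgam, 3 nearest genes per member, and controls. Not every gene picked by this rule is printed, for example Emcn, Sox18 and Fcgr3. The T and NK cell list had 0 of 1 measured genes past 2-fold in IL-18 null banding and 0 of 2 in wild type; the neutrophil list had 1 of 3 higher in IL-18 null and 2 of 3 lower in wild type; the smooth muscle list had 2 of 5 higher in each genotype. The endothelial list had 0 of 8 past 2-fold in IL-18 null and 5 of 10 higher in wild type, the fibroblast list 6 of 9 higher in each, and the cardiomyocyte list 0 of 10 and 2 of 10 higher. Over all genes 6.98% were higher and 2.53% lower in IL-18 null, and 21.7% higher and 12.8% lower in wild type, so the cardiomyocyte share in wild type is near the background. Members and lists were chosen with earlier results of these data known. Alternatives were floors, scalings, a 1.5-fold threshold, probe set choices and fit settings.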

Additional observations from a re-analysis of the deposited data

Results flagged for a closer look

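With 1 array per group, 5 of the 12 measured integrin probe sets had banding differences of opposite sign in IL-18 null and in wild type. The difference was not tested. The share of all measured probe sets with opposite signs was not computed, so the count is not a result about integrins. For Itgb1 the log2 differences in IL-18 null and wild type were -0.40 and at least 5.35 for 1426918_at, -1.36 and at least 2.92 for 1427771_x_at, and -1.19 and at least 5.02 for 1452545_a_at. For Itga6 1422445_at they were 0.76 and -0.23, and for Itgav 1452784_at 0.88 and -0.87. The wild-type difference of Itga6 was a fold of only 1.17, with 45.4% of probe sets measured on both arrays at or below it. Only the Itgb1 values passed 2-fold, all 3 in wild type and 1427771_x_at and 1452545_a_at in IL-18 null. The middle Gapdh control differed by less between the IL-18 null arrays (11.92 in banded against 10.66 in sham, log2) than between the wild-type arrays (14.06 in banded against 6.39 in sham). Its part in these values was not tested.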

How the results depend on the processing

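Counts of integrin probe sets at least 2-fold apart were recomputed under 9 alternatives and the fit under 5. Of the recomputed counts 79 stayed within 1.5 times the reported one and 21 did not, and no called difference of a single probe set changed sign. In wild-type banding (7 higher, 0 lower) 2 were higher with 1 probe set per gene, and 1 was lower after quantile normalization, after centring on the median and at a 1.5-fold threshold. In IL-18 null banding (1 higher, 2 lower) 2 were higher with a floor of log2 5 and with no floor, 6 at 1.5-fold and 0 without probe sets marked as able to cross-hybridise; 1 was lower with a floor of log2 7 and without the marked probe sets, and 0 with 1 probe set per gene. On the banded arrays (2 higher, 6 lower in IL-18 null) 1 was higher after cyclic loess and without the marked probe sets, and 1 lower with 1 probe set per gene. On the sham arrays (4 higher, 0 lower) 2 were higher without the marked probe sets and with 1 per gene, and 2 lower at 1.5-fold. For the difference of responses (2 above, 7 below) 1 was above without the marked probe sets and 2 below with 1 per gene. For banding the limma fit called 2 integrin probe sets after quantile normalization (Itgb1 1426918_at and 1452545_a_at, adjusted p = 0.00745 and 0.0161 by limma; 64 of 7474 in all) and 4 without the filter on low values (these with Itgb5 1417533_a_at and Itga5 1423267_s_at; 245 of 20380). These calls rest on values that were not set to the floor and on an SE that limma moderates across probe sets. For Itgb1 1426918_at it was 0.87 after quantile normalization, against 1.93 in the main fit. Both called Itgb1 probe sets had banding differences of opposite sign in the 2 genotypes. Their calls are therefore not evidence of a banding difference shared by the genotypes. Without the trend, at an adjusted p of 0.1 and after cyclic loess the limma fit called 0 for banding and 0 for genotype. The cause of these moves was not tested, beyond the fewer probe sets that some alternatives hold. No paired analysis was possible because each group has 1 array and the labels give no replicate numbers. Values near the floor are limited by background.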
